A study of Mus musculus with 8 samples.

Results

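The genes described here are 40 antiviral interferon-stimulated genes, taken from a list of names drawn up with earlier results of these data known, so that counts over them describe the list and are not independent evidence. All 40 had a row in both deposited tables, which hold 22142 genes for cells with IFNγ and 22288 for untreated cells. A member was kept if its mean in either table reached 10 normalized counts, as 37 of the 40 did. Mx1, Mx2 and Rsad2 stayed below it. The cells were MC38, a mouse colon adenocarcinoma line, as control or as DENR KO. The KO cells were made with lentivirus carrying Cas9 and a guide RNA against Denr. The study at times calls its control cells WT, and it also lists a control guide RNA. Whether the sequenced control cells carried that guide was not stated. Each genotype was sequenced after 4 h with 20 ng/ml IFNγ and without treatment, with 2 samples in each of the 4 groups, and the labels name no type I interferon for any group. DENR is a translation factor that helps ribosomes start again after a short upstream reading frame. Whether the KO samples come from 1 or several guides or clones was not given in the sources used here. The study calls the samples of the IFNγ comparison independent, whereas the labels do not say that replicates were separate cultures, and p-values measure the spread between these samples. Denr mRNA, the check of the labels, had 1438 and 1401 normalized counts in control samples with IFNγ against 946 and 957 in DENR KO samples (log2 fold change −0.58, standard error 0.071, adjusted p = 8.17e-06). Untreated, Denr had 1448 and 1297 in control samples against 943 and 916 in DENR KO samples, so the mRNA was reduced, not absent, under both conditions. The study checked its DENR knockout in MC38 cells by western blot, which measures protein, and these mRNA values do not measure protein.

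Interferon-stimulated genes are the effectors of cell-intrinsic antiviral defense. Type I interferon binds the IFNAR receptor, and the kinases TYK2 and JAK1 then activate a transcription factor complex, ISGF3, that binds the interferon-stimulated response element (ISRE). IFNγ binds another receptor and acts mainly through the gamma-activated site (GAS), and many antiviral genes answer to both cytokines. Their products include sensors of viral RNA, nucleases and enzymes that deplete nucleotides, membrane proteins that block entry or release of virus, and the ubiquitin-like modifier ISG15.

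Promoter windows from 250 bases before to 50 bases after the transcription start, from RefSeq on GRCm38.p6, were found for 31 of the 40 members. None was found for Zbp1, Mx1, Mx2, Oas2, Dhx58, Rtp4, Ifi27, Tor3a and Usp18. The ISRE core was searched on both strands as GAAA, any 2 bases and GAAA again, and the GAS core as the palindrome TTCNNNGAA. An ISRE core was present in 14 of the 31 members (45.2%), against 3.99% of all 27025 genes with a window. A GAS core was present in 9 of the 31 (29.0%), against 9.55% of all genes. The following stretches, written 5′ to 3′ on the strand of the gene with the matched bases in capitals, were chosen because they belong to members that differ in the results below. Isg15, with 3 overlapping ISRE cores, and Oas3 fell in DENR KO cells with IFNγ, whereas Ifit1 and Oas1a did not pass the test. Oasl2, Xaf1, Herc6, Ifitm1, Pml, Rnf213 and Helz2 also fell, and their windows held neither core. A relation between these cores and the fall was not tested. The Ifit3 and Ifit3b stretches are the same in every base, and the Oas1a and Oas1g cores are the same.
Isg15 (chr4:156200850-156200921, minus strand): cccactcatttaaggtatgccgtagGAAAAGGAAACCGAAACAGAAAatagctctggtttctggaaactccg
Oas3 (chr5:120777700-120777759, minus strand): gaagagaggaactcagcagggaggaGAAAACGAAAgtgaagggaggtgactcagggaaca
Ifit1 (chr19:34640760-34640838, plus strand): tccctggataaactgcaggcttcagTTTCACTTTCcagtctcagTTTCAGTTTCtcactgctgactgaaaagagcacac
Ifit3 (chr19:34583348-34583441, plus strand): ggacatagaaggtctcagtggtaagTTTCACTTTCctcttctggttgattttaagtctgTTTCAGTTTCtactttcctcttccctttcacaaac
Ifit3b (chr19:34607744-34607837, plus strand): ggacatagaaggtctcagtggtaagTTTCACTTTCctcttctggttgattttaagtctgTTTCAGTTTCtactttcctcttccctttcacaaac
Oas1a (chr5:120907526-120907570, minus strand): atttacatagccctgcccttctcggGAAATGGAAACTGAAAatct
Oas1g (chr5:120887614-120887656, minus strand): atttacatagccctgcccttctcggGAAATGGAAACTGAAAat
The next 3 hold a GAS core. Samhd1 is the member whose DENR KO effect differed between treatments, Eif2ak2 fell with IFNγ, and in Bst2 the GAS core shares bases with the first of a pair of overlapping ISRE cores. Outside the printed stretches, Eif2ak2 also holds an ISRE core at position 19 after the start. Oas1a, printed above, also holds a GAS core at position −98.
Samhd1 (chr2:157135298-157135346, minus strand): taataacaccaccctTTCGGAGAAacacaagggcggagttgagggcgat
Eif2ak2 (chr17:78882717-78882775, minus strand): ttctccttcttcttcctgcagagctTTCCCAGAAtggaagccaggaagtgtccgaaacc
Bst2 (chr8:71537575-71537633, minus strand): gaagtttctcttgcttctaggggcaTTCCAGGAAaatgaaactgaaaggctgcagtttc
A match is a description of these letters and not a measured binding site.

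**Figure D1:**
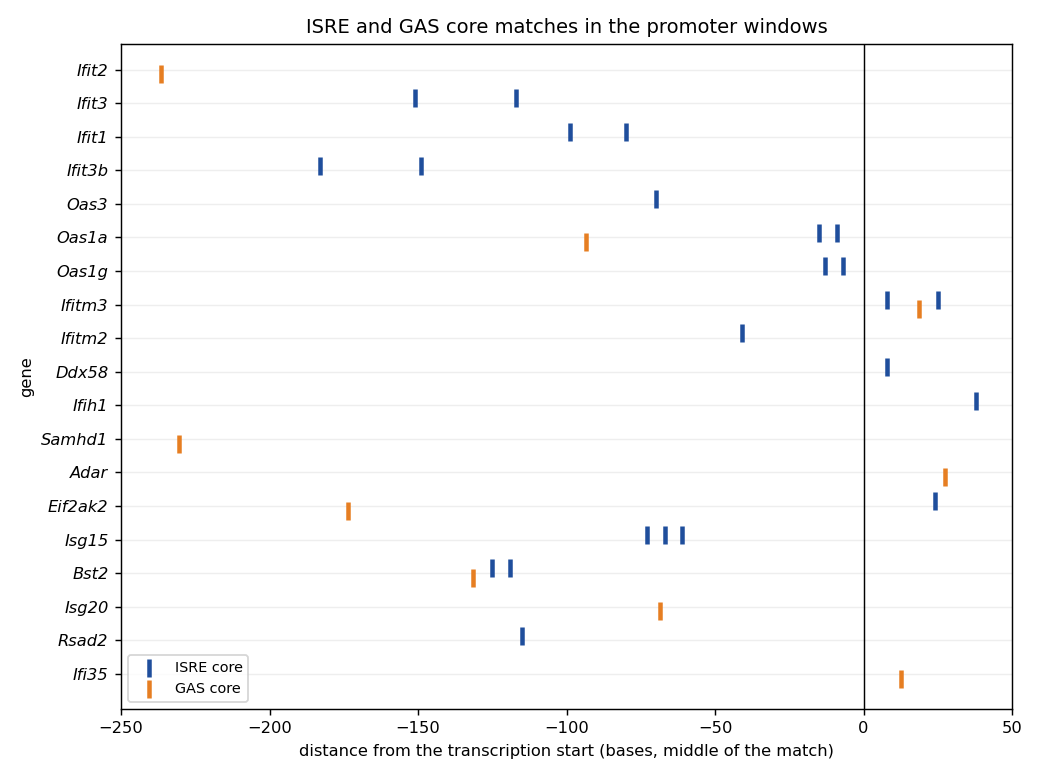
Positions of ISRE core matches (blue) and GAS core matches (orange) in the promoter windows of the members with at least 1 match. The x axis is the distance in bases from the transcription start (0), and each row is a gene. Most ISRE cores lie in the 200 bases before the start, and the GAS core of Samhd1 lies near the far end of its window.

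Reads on genes came to between 17369020 and 18403790 per sample, and the 10 most abundant genes held 4.10% to 4.45% of them. Normalized counts are reads scaled by a single factor per sample, between 0.976 and 1.02. Counting error alone is 31.6% of a value of 10 and 3.16% of a value of 1000 normalized counts. The labelled tissue was not borne out by its markers. None of 10 colon epithelial markers was above 10 normalized counts in all 8 samples, and their summed level ran from 20.5 to 47.1. Of 5 fibroblast markers, 4 were above that level in every sample. Their summed level was 17920 to 18170 in control and 16220 to 16680 in DENR KO samples with IFNγ, and 18910 to 19430 in control and 17450 to 18120 in DENR KO samples without it. The lower sum with IFNγ came from Dcn, which had 5819.9 and 6617 in control and 4322 and 4659 in DENR KO samples (log2 fold change −0.47, standard error 0.063, adjusted p = 4.24e-05), and Dcn was also lower untreated (adjusted p = 0.013 from limma). Col1a1, Col1a2 and Pdgfra had log2 fold changes of −0.059, 0.011 and 0.056 with IFNγ and did not pass. The part of these markers in the results below was not tested. Of 9 immune markers, Cd68 alone was above 10 in all samples, and 8 had a mean under 1 or no row. The 3 endothelial markers summed to between 15.6 and 31.2.

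The 37 kept members were expressed at very different levels, and most were higher in cells with IFNγ. Their summed level was 23440 and 23889 normalized counts in untreated control samples and 69178 and 66715 in control samples with IFNγ. In DENR KO samples the sum was 21441 and 21882 untreated and 52199 and 50992 with IFNγ. Samhd1 alone gave 10.8% to 11.4% of the sum in untreated samples and 22.3% to 28.1% with IFNγ. Per kilobase of transcript, Ifitm3 was the most abundant member in control cells with IFNγ, at 8583 normalized counts per kilobase, followed by Ifitm2 at 3002, Bst2 at 2176 and Samhd1 at 2029. At the other end, the kept members Ifi44, Ifit3b, Oas1g, Oas2 and Oasl1 had between 4.15 and 7.40 normalized counts per kilobase. In these bulk samples, fewer cells expressing a gene and less RNA per cell cannot be told apart.

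**Figure D2:**
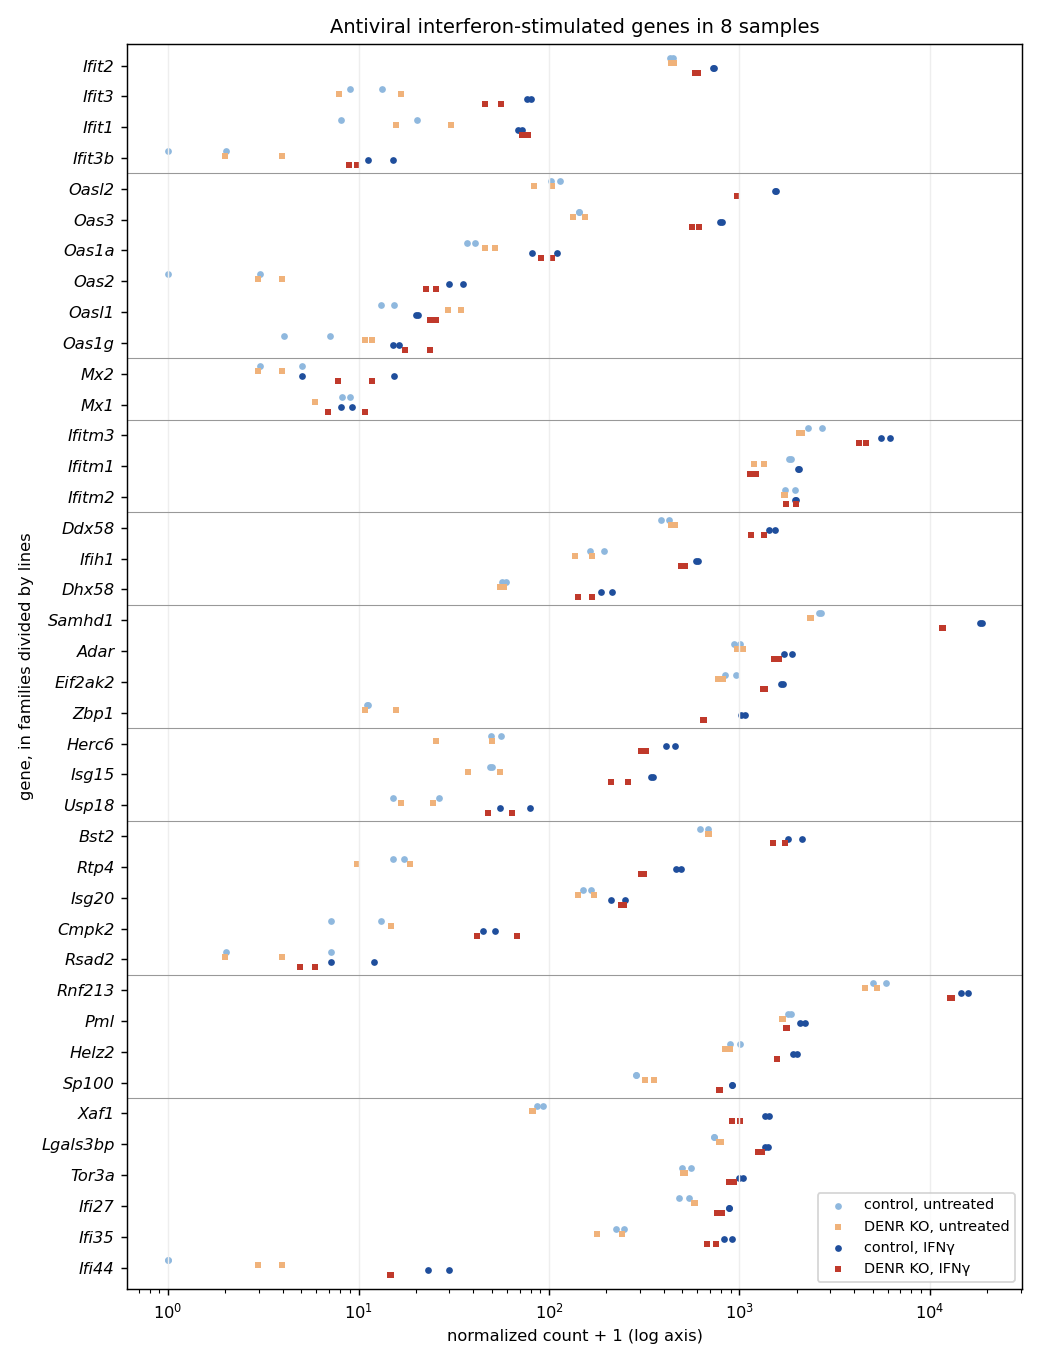
Normalized count + 1 (log axis) of each of the 40 listed members in the 8 samples, grouped by family between the lines. Circles are control and squares are DENR KO samples, pale without and dark with IFNγ, and each point is 1 sample. For most members the dark points lie to the right of the pale ones, and for many the dark squares lie to the left of the dark circles.

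The first question was which antiviral genes were higher after 4 h of IFNγ. Because the tables with and without IFNγ were normalized separately, these ratios are a description with no test. The ratio of the IFNγ-treated to the untreated mean, each on the normalized count + 1 scale, was at least 2 for 26 of the 37 members in control cells, where 3.04% of all genes reached it. In DENR KO cells 23 members reached a ratio of 2, against 2.38% of all genes. Both IFNγ-treated samples were above both untreated samples for 36 members in control cells, where 16.6% of all genes had that pattern, and for 35 in DENR KO cells, where 15.6% had it. The median ratio of the members was 3.25 in control and 2.71 in DENR KO cells, and that of all genes was 0.944 and 0.947. Shares and medians of all genes are over 13998 genes in both tables with a mean of at least 10 over the 8 samples. Members were kept by another rule, and Ifit3b, Oas1g, Oas2 and Ifi44 met it only through their values with IFNγ. For these members a higher level with IFNγ was favored by the filter and is no support. Putting all samples on a joint scale moved the median gene by 0.078 (control) and 0.072 (DENR KO) on the log2 scale. The ratio was smaller in DENR KO than in control cells for 34 of the 37 members, the exceptions being Isg20, Herc6 and Ifitm2, and for 49.5% of all genes. Such smaller ratios hold the same samples as the genotype comparisons below and are not separate evidence.

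Zbp1, a sensor of Z-form nucleic acids that can trigger necroptosis, had the highest ratio, 93.6 in control and 48.9 in DENR KO cells. Rtp4, an interferon-induced protein that binds viral RNA, followed with 29.5 and 21.8. The ratio of Xaf1, a pro-apoptotic antagonist of XIAP, was 15.6 in control and 11.7 in DENR KO cells. Oasl2, an OAS-like protein, had 14.2 and 10.4. Thus the members with the largest ratios came from different families. Herc6, the main ISG15 ligase of the mouse, had nearly the same ratio in both genotypes, 8.25 and 8.28. Samhd1, a hydrolase of deoxynucleotides, had 7.01 and 4.92. Among the abundant members, Ifitm1 and Ifitm2 barely differed with treatment, with ratios of 1.11 and 1.07 in control and 0.926 and 1.08 in DENR KO cells. Pml had 1.17 and 1.05. Oasl1 had the lowest ratio in DENR KO cells, 0.768 against 1.43 in control cells. Its DENR KO values were low, at 33.4 and 28.5 untreated and 22.6 and 24.4 with IFNγ, so counting error is large.

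For 3 members, Ifi44, Oas2 and Ifit3b, the untreated mean was below the floor of 3 reads per library, and their fitted ratios rest on the pseudocount. Ifi44 was at 0 in both untreated control samples and had 28.7 and 22.1 with IFNγ, which is at least 8.36-fold higher. Oas2 had 0 and 2.04 untreated and 28.7 and 34.2 with IFNγ in control samples. Ifit3b had 0 and 1.02 untreated and 10.2 and 14.1 with IFNγ. With these 3 set against the floor, and no pseudocount for any member, the counts of 26 and 23 were the same and the medians were 3.35 and 2.78.

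**Figure D3:**
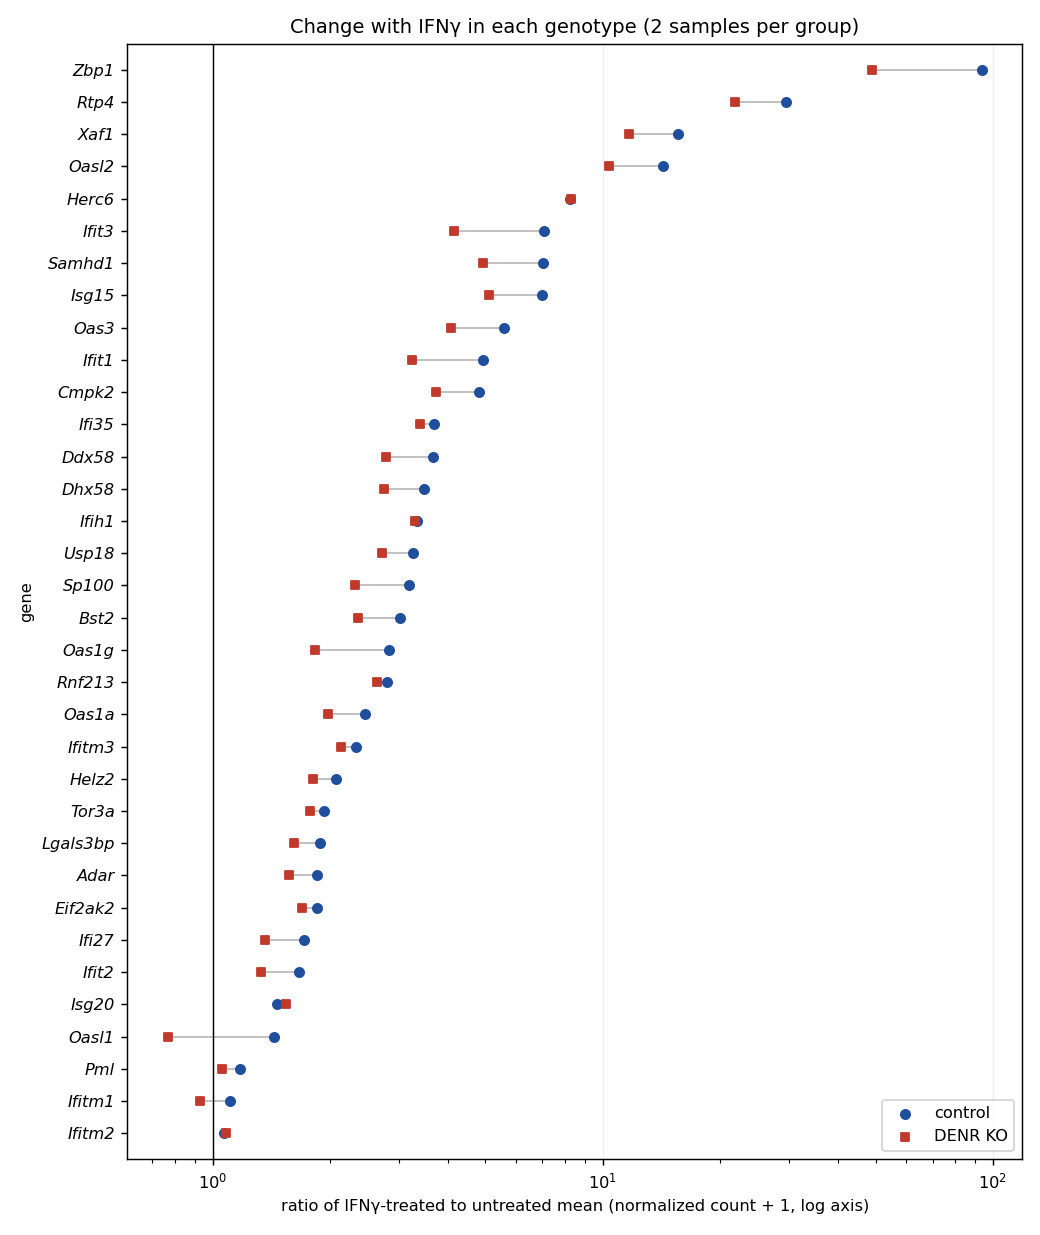
Ratio of the IFNγ-treated to the untreated mean (normalized count + 1, log axis) in control cells (circles) and DENR KO cells (squares) for the 34 kept members whose untreated means reached 3 reads per library. Zbp1 has the largest ratio in both genotypes, and for most members the square lies to the left of the circle.

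The main comparison was DENR KO against control in cells with IFNγ. Of the 37 members tested, 14 were lower in DENR KO cells at an adjusted p under 0.05 from limma, where 2.25% of the 13928 genes tested were lower. They were Isg15, Oas3, Oasl2, Rtp4, Xaf1, Zbp1, Eif2ak2, Herc6, Ifitm1, Ifitm3, Samhd1, Pml, Rnf213 and Helz2. None was higher by limma, edgeR or DESeq2, where 1.8% of all genes were higher by limma. At an unadjusted p under 0.05 from limma, 25 members were lower and none was higher. Of all genes, 6.45% were lower and 6.96% higher at that threshold. A fall of more than 0.5 on the log2 scale was held by 7 of the 14, and 143 of the 13928 genes tested were called with such a fall. By sign alone, 31 members were lower and 6 were higher, with a median log2 fold change of −0.29 against −0.000356 for all genes tested. Both DENR KO samples were below both control samples for 29 members, where 20.8% of all genes had that pattern, and above both for 3, Ifit1, Oasl1 and Oas1g, where 21.1% of all genes were. Oas3, Oasl2, Xaf1, Ifitm1, Ifitm3, Samhd1 and Helz2 were called in each of the 13 other fits tried, and the other 7 lost the call in at least 1. Of those 7 members called in each fit, Oas3, Ifitm3 and Helz2 fell by less than the 0.5 above.

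**Figure D4:**
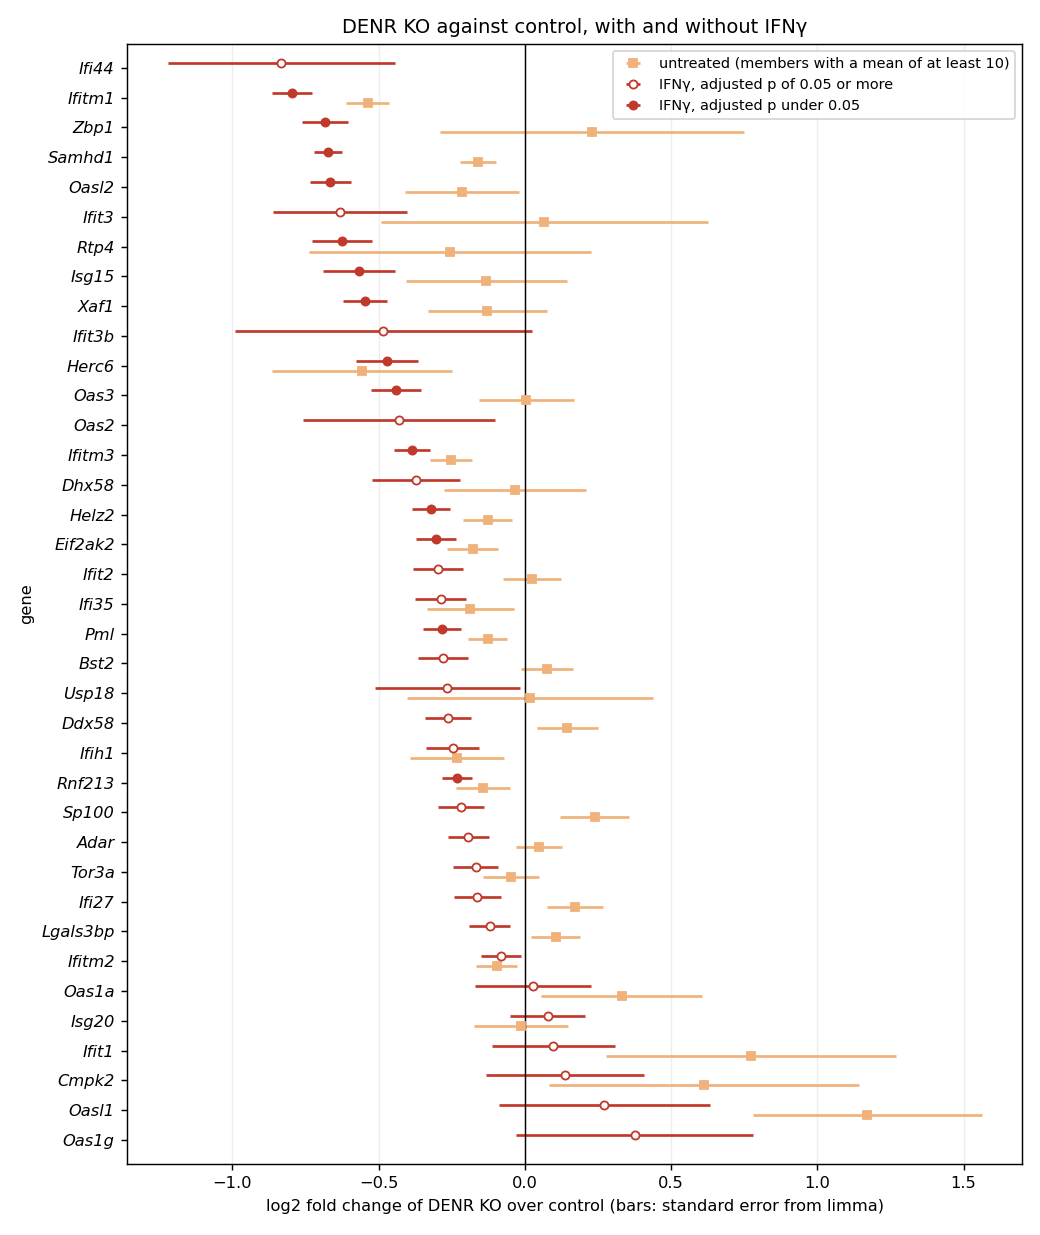
DENR KO over control as a log2 fold change for each kept member with IFNγ (circles, filled where the adjusted p from limma was under 0.05) and untreated (squares), with standard errors as bars. With IFNγ the 14 filled circles all lie left of 0, whereas the untreated squares scatter on both sides.

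Among the nucleic acid effectors, 3 of 4 members fell in DENR KO cells with IFNγ. Samhd1 (ENSMUSG00000027639, chr2:157097533-157135265 on GRCm38) had 2670.2 and 2627 normalized counts in untreated control samples, 2384 and 2356 in untreated DENR KO samples, 18416 and 18715 in control samples with IFNγ and 11623 and 11690.0 in DENR KO samples with IFNγ. The groups did not overlap under either condition, and with IFNγ the gap was far wider than the spread within a group. Samhd1 fell with IFNγ from a mean of 18566 ± 212 to 11656 ± 47.3 (SD, n = 2), which is 62.8% of control (log2 fold change −0.67, standard error 0.048, adjusted p = 1.48e-09). Zbp1 (ENSMUSG00000027514, chr2:173206612-173218923) had 10.1 and 10.2 in untreated control and 14.7 and 9.83 in untreated DENR KO samples, and 1014 and 1068 against 650.5 and 646 with IFNγ. Near absent in untreated cells of both genotypes, Zbp1 fell to 62.2% of control with IFNγ (log2 fold change −0.68, standard error 0.080, adjusted p = 3.52e-06), a call that missed the threshold when all 8 samples were fitted together (adjusted p = 0.0537). Eif2ak2 encodes PKR, the kinase that stops translation on sensing double-stranded RNA. It had 1642 and 1685 in control and 1333 and 1362 in DENR KO samples with IFNγ (log2 fold change −0.30, standard error 0.067, adjusted p = 0.00748), and the call was lost without DENR KO replicate 1 (adjusted p = 0.0584). Adar, the editor of adenosines in double-stranded RNA, had 1877 and 1709 in control and 1609 and 1526 in DENR KO samples and did not pass (log2 fold change −0.19, standard error 0.069, adjusted p = 0.154). The exons of Adar share 16.8% of their bases with the antisense gene Chrnb2, and reads from the overlap cannot be assigned without strand.

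The Ifitm genes lie together on chromosome 7 and encode membrane proteins that hinder fusion of enveloped viruses. Ifitm1 and Ifitm3 fell in DENR KO cells with IFNγ and Ifitm2 did not pass the test. Ifitm1 (ENSMUSG00000025491, chr7:140967221-140969825) had 1826 and 1852 in untreated control and 1348 and 1191 in untreated DENR KO samples, and 2032 and 2049 against 1138 and 1214 with IFNγ. Its control and DENR KO samples were separate under both conditions, with ratios to untreated near 1. With IFNγ, Ifitm1 fell from 2040.3 ± 12 to 1176 ± 54.0 (SD, n = 2), or 57.6% of control (log2 fold change −0.80, standard error 0.068, adjusted p = 2.27e-08). Untreated, Ifitm1 fell to 69.0% of control (log2 fold change −0.54, standard error 0.073, adjusted p = 8.96e-05). Ifitm3 had 2703 and 2287 in untreated control and 2131 and 2044 in untreated DENR KO samples, and 6136 and 5503 against 4633 and 4265 with IFNγ. Its groups were separate in both conditions, but Ifitm3 fell by the test only with IFNγ (log2 fold change −0.39, standard error 0.062, adjusted p = 0.000325), while untreated its values gave a log2 fold change of −0.25 (adjusted p = 0.161). Ifitm2 had 1987 and 1946 against 1975 and 1751 with IFNγ, and the groups overlapped (log2 fold change −0.080, standard error 0.069, adjusted p = 0.707). Of the Ifitm2 exon bases, 40.9% also belong to the gene Gm45717, so its reads may be divided.

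The OAS proteins sense double-stranded RNA and, in the catalytic members, make the 2-5A signal that switches on RNase L. Of 6 members, Oas3 and Oasl2 fell with IFNγ, and the other 4 did not pass. Oasl2 (ENSMUSG00000029561, chr5:114896936-114912234) had 114 and 101 in untreated control and 82.4 and 103 in untreated DENR KO samples, and 1528 and 1552 against 968 and 973 with IFNγ. The untreated groups overlapped, and the IFNγ-treated groups were far apart. Oasl2 fell with IFNγ to 63.0% of control (log2 fold change −0.67, standard error 0.070, adjusted p = 7.56e-07). Oas3, which makes 2-5A on long RNA, had 142 and 143 in untreated control and 132 and 154 in untreated DENR KO samples, and 786 and 807 against 614 and 561 with IFNγ. Oas3 fell to 73.7% of control with IFNγ (log2 fold change −0.44, standard error 0.086, adjusted p = 0.00243), while its untreated groups overlapped. The other 4 members were less abundant, and their values lay on both sides of control. Oasl1 had 19.5 and 19.1 in control and 22.6 and 24.4 in DENR KO samples with IFNγ (log2 fold change 0.27, standard error 0.36, adjusted p = 0.834). Untreated, Oasl1 had 12.1 and 14.3 in control and 33.4 and 28.5 in DENR KO samples, the widest upward gap of any member tested there, yet it did not pass (log2 fold change 1.17, standard error 0.39, adjusted p = 0.268). Oas1a had 109.6 and 80.5 against 102 and 89.9 with IFNγ (log2 fold change 0.029, standard error 0.20, adjusted p = 0.98), and Oas1g 15.4 and 14.1 against 22.6 and 16.6 (log2 fold change 0.38, standard error 0.41, adjusted p = 0.78). Oas1a and Oas1g are near-identical copies, with 68.7% of the 31-base words of Oas1a also in Oas1g, so reads may be divided between them and both values are uncertain. Oas2 had 28.7 and 34.2 against 24.6 and 21.5 with IFNγ, separate groups of few reads (log2 fold change −0.43, standard error 0.33, adjusted p = 0.655).

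The IFIT proteins bind viral RNA with foreign 5′ ends and keep it from being translated. None of the 4 Ifit genes passed the adjusted threshold with IFNγ by limma, edgeR or DESeq2, although 2 were lower at an unadjusted p under 0.05, which 6.45% of all genes were. Ifit2 (ENSMUSG00000045932, chr19:34550694-34576419), the most abundant, had 446 and 429.6 in untreated control and 452 and 438 in untreated DENR KO samples, and 732 and 723 against 601 and 583 with IFNγ. Its treated groups were separate and the value just missed the threshold (log2 fold change −0.30, standard error 0.085, adjusted p = 0.0509), which it passed with a minimum mean of 100 or median centring (adjusted p = 0.0413 and 0.0415). Ifit3, an adaptor of the IFIT complex, had 75.8 and 79.5 against 55.1 and 44.9 with IFNγ (log2 fold change −0.63, standard error 0.23, adjusted p = 0.154). Ifit1, which binds RNA caps that lack 2′-O methylation, had 70.7 and 67.5 in control and 76.8 and 71.3 in DENR KO samples with IFNγ, a small gap in the other direction (log2 fold change 0.10, standard error 0.21, adjusted p = 0.912). Ifit3b had 10.2 and 14.1 against 7.87 and 8.79 (log2 fold change −0.48, standard error 0.51, adjusted p = 0.772). Ifit3 and Ifit3b share 61.8% of the 31-base words of Ifit3, so their reads may be divided and their values are uncertain. The neighbours on chromosome 19 thus gave fold changes of both signs, and their errors, apart from that of Ifit2, were large.

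The 3 RIG-I-like receptors, which sense viral RNA in the cytoplasm, were lower by sign with IFNγ. None passed the adjusted threshold by limma, edgeR or DESeq2. All 3 were lower at an unadjusted p under 0.05 from limma, which 6.45% of all genes were. Ddx58, the gene of RIG-I, had 1437 and 1543 in control and 1149 and 1339 in DENR KO samples (log2 fold change −0.26, standard error 0.078, adjusted p = 0.0613). It passed without control replicate 1 (adjusted p = 0.0175) and without DENR KO replicate 2 (adjusted p = 0.00417), and its log2 fold change ran from −0.37 to −0.15 with 1 sample left out, the smallest without DENR KO replicate 1. Ifih1, the gene of MDA5, had 605 and 592 against 493 and 516 (log2 fold change −0.25, standard error 0.090, adjusted p = 0.168). Dhx58, which encodes LGP2 and modulates both, had 212 and 187 against 141 and 168 (log2 fold change −0.37, standard error 0.15, adjusted p = 0.23). In each of the 3, both DENR KO samples were below both control samples, where 20.8% of all genes had that pattern.

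ISG15 is a ubiquitin-like protein that Herc6 attaches to target proteins and Usp18 removes. Isg15 and Herc6 fell with IFNγ, and neither call held in every setting. Isg15 (ENSMUSG00000035692, chr4:156199424-156200818) had 49.3 and 48.0 in untreated control and 54.0 and 36.4 in untreated DENR KO samples, and 349 and 343 against 259.8 and 210.0 with IFNγ. Its control samples were close together and its DENR KO samples farther apart, with both below control after IFNγ. Isg15 fell to 67.8% of control (log2 fold change −0.57, standard error 0.12, adjusted p = 0.00644), and its adjusted p ran from 0.000276 to 0.122 over the other settings. It was not called by DESeq2, with 8 samples fitted together or without DENR KO replicate 2. Herc6 had 48.3 and 55.1 in untreated control and 49.1 and 24.6 in untreated DENR KO samples, and 456 and 412 against 304 and 320.4 with IFNγ. Herc6 fell to 72.0% of control (log2 fold change −0.47, standard error 0.11, adjusted p = 0.00845), and its adjusted p ran up to 0.443 over the other settings, 4 of which ended the call. Those were DESeq2, 8 samples fitted together, and leaving out control or DENR KO replicate 1. Of the Herc6 exon bases, 13.7% also belong to the gene Gm45193 on the same strand, so its reads may be divided. Untreated, the Herc6 samples overlapped, with a fitted log2 change of −0.56 (standard error 0.31, adjusted p = 0.6). Usp18, also the brake on IFNAR signaling, had 78.9 and 54.4 against 63.0 and 46.9 with IFNγ, and the groups overlapped (log2 fold change −0.27, standard error 0.25, adjusted p = 0.743). Its log2 fold change rested on single samples, at −0.00047 without control replicate 1 and −0.53 without control replicate 2.

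Of the nucleotide, RNA and membrane effectors, Rtp4 fell and Bst2, Isg20 and Cmpk2 did not pass. Rtp4 (ENSMUSG00000033355, chr16:23520291-23614222) had 14.1 and 16.3 in untreated control and 8.83 and 17.7 in untreated DENR KO samples, and 464 and 491 against 314 and 305 with IFNγ. From low, overlapping untreated levels, Rtp4 fell to 64.8% of control with IFNγ (log2 fold change −0.62, standard error 0.10, adjusted p = 0.000382), and the call was lost with 8 samples fitted together (adjusted p = 0.227). Of the Rtp4 exon bases, 13.9% also belong to the gene Gm45338 on the same strand, so its reads may be divided. Bst2 encodes tetherin, which holds budding virus at the cell surface. It had 2130.2 and 1800.2 in control and 1734 and 1500.2 in DENR KO samples, separate by a margin smaller than the spread within each group (log2 fold change −0.28, standard error 0.086, adjusted p = 0.096). Bst2 passed without control replicate 2 (log2 fold change −0.40, adjusted p = 0.000343) and without DENR KO replicate 1 (−0.38, adjusted p = 0.00142), and had −0.16 without control replicate 1 and −0.18 without DENR KO replicate 2. Isg20, a nuclease of single-stranded RNA, had 250 and 210.4 against 246 and 238 and overlapping groups (log2 fold change 0.078, standard error 0.13, adjusted p = 0.878). Cmpk2, a mitochondrial nucleotide kinase, had 44.1 and 51.3 against 66.9 and 41.0, its DENR KO samples on either side of the control samples (log2 fold change 0.14, standard error 0.27, adjusted p = 0.901). Rsad2, the gene of viperin and the neighbour of Cmpk2 on chromosome 12, had only 6.15 and 11.1 in control and 4.92 and 3.91 in DENR KO samples with IFNγ and was not tested. Mx1 and Mx2, dynamin-like GTPases that trap viral particles, were likewise too low to test. Mx1 had 8.20 and 7.05 against 5.90 and 9.77 with IFNγ, and 8.05 and 7.14 against 4.91 and 4.91 untreated. Mx2, annotated as a polymorphic pseudogene, had 14.3 and 4.03 against 10.8 and 6.84 with IFNγ.

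In the group of nuclear body proteins and large interferon-induced proteins, 3 of 4 fell with IFNγ, all by modest amounts. Helz2, a helicase that acts as a transcriptional co-activator, had 1993 and 1919 in control and 1566 and 1564 in DENR KO samples (log2 fold change −0.32, standard error 0.065, adjusted p = 0.00344). Pml, the scaffold of PML nuclear bodies, had 2219 and 2078 against 1772 and 1758 (log2 fold change −0.28, standard error 0.065, adjusted p = 0.00999), and without control replicate 1 its adjusted p was 0.105. Rnf213, a giant ubiquitin ligase, had 15906 and 14551 against 13116 and 12788 (log2 fold change −0.23, standard error 0.052, adjusted p = 0.00818). By count it was second to Samhd1 in control samples with IFNγ and above Samhd1 in the other groups, and its call was lost with 8 samples fitted together, without control replicate 1 and without DENR KO replicate 2, at an adjusted p of up to 0.281. Sp100, a partner of Pml in nuclear bodies, had 909 and 910.1 against 787 and 775 (log2 fold change −0.22, standard error 0.078, adjusted p = 0.151), so that its groups were separate but the value did not pass.

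Among the 6 remaining members, Xaf1 alone fell. All 6 were lower by sign with both DENR KO samples below both control samples, where 20.8% of all genes had that pattern. Xaf1 (ENSMUSG00000040483, chr11:72301629-72313733) had 91.6 and 85.7 in untreated control and 81.4 and 80.6 in untreated DENR KO samples, and 1362 and 1425 against 909 and 1001 with IFNγ. Its IFNγ-treated groups were well apart, with DENR KO at 68.6% of control (log2 fold change −0.55, standard error 0.075, adjusted p = 3.75e-05). Ifi44 had the lowest fold change of any member, from 28.7 and 22.1 in control to 13.8 and 13.7 in DENR KO samples, with few reads, and did not pass (log2 fold change −0.83, standard error 0.39, adjusted p = 0.345). Ifi35, an IFN-induced partner of Nmi, had 915 and 825 against 752 and 673 (log2 fold change −0.29, standard error 0.086, adjusted p = 0.0668), with 16.8% of its exon bases shared with an antisense gene. Ifi35 passed without control replicate 2 (adjusted p = 0.0208) and without DENR KO replicate 1 (adjusted p = 0.0296). Tor3a, Ifi27 and Lgals3bp had log2 fold changes of −0.17, −0.16 and −0.12 with adjusted p of 0.338, 0.384 and 0.504 from limma.

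The same genotype comparison was made in untreated cells, with other samples of both genotypes. Of 33 members tested, only Ifitm1 was lower at an adjusted p under 0.05 from limma, where 0.15% of all 13998 genes were, and none was higher, where 0.429% of all genes were. At an unadjusted p under 0.05, 4 were lower and 1 was higher, where 3.74% and 5.51% of all genes were, and edgeR and DESeq2 each called Ifitm1 alone. By sign 18 were lower and 15 higher, with a median log2 fold change of −0.032 against 0.00192 for all genes. Both DENR KO samples were below both control samples for 7 of the 33, where 19.6% of all genes had that pattern, and above both for 7, where 20.4% of all genes were. Samhd1 was among the lower ones, at 89.5% of control, but did not pass (log2 fold change −0.16, standard error 0.063, adjusted p = 0.392). Ifit3b, Oas1g, Oas2 and Ifi44 were below a mean of 10 in untreated cells and were not tested. Several members with few reads had large errors here, which the bars in the plot of fold changes show.

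Whether the effect of DENR KO depended on IFNγ was tested with a genotype by treatment term in a fit of all 8 samples. A negative value means a more negative DENR KO effect with IFNγ than without. Of 36 members tested, 1 passed at an adjusted p under 0.05 from limma, where 0.429% of 13998 genes did in that direction, and none passed in the other, where 0.0214% did. That member was Samhd1, with a difference of −0.51 on the log2 scale (standard error 0.073, adjusted p = 0.000345). It was the only member called by edgeR and DESeq2 as well. By sign 33 of 36 differences were negative, with a median of −0.34 against 0.00096 for all genes, and 14 negative ones and no positive one had an unadjusted p under 0.05, where 3.24% and 2.5% of all genes did. In 5 of the 36, both DENR KO samples were below both control samples with IFNγ and above both untreated, where 2.26% of all genes had that pattern. The difference of Zbp1 was −0.91 (standard error 0.27, adjusted p = 0.275), and it passed only without untreated DENR KO replicate 2 (adjusted p = 0.0413). Oasl2 had a difference of −0.45 (adjusted p = 0.52) and Bst2 of −0.36 (adjusted p = 0.475). Ifitm1, lower in DENR KO cells under both conditions, had a difference of −0.26 (standard error 0.099, adjusted p = 0.592). For 13 of the 14 members that fell with IFNγ, a difference from the untreated effect was therefore not shown.

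Type I interferon signaling itself was read from 21 genes, of which 19 were tested. The lists are not separate, since Isg15 and Usp18 are also antiviral members and Socs1 is also among the IFNγ targets below. Ifnb1 and Ifna4, type I interferon genes, had no row in the tables used. With IFNγ, 6 of the 19 were lower in DENR KO cells by limma (Stat2, Irf9, Tmem173, Socs1, Trim25 and the member Isg15) and none was higher. Of all genes tested, 2.25% were lower and 1.8% higher. At an unadjusted p under 0.05 from limma, 9 were lower and none higher, where 6.45% of all genes were lower and 6.96% higher. DESeq2 called 4 lower and edgeR 6, where over all genes they called 223 of 12698 and 309 of 14131 lower. The median log2 fold change was −0.19. Stat2 and Irf9 encode transcription factors of the pathway. Stat2 had 1844 and 1960.2 in control and 1295 and 1355 in DENR KO samples (log2 fold change −0.52, standard error 0.068, adjusted p = 1.82e-05). Irf9 had 1166 and 1094 against 900.4 and 961 (log2 fold change −0.28, standard error 0.076, adjusted p = 0.0368). None of the receptor and kinase genes passed. Ifnar1, Ifnar2, Tyk2 and Jak1 had log2 fold changes of 0.11, −0.12, −0.033 and 0.013, with adjusted p of 0.538, 0.68, 0.937 and 0.964 from limma. Irf7, a transcription factor that amplifies interferon production, had 257 and 259 against 248 and 159 and did not pass (log2 fold change −0.37, standard error 0.17, adjusted p = 0.352). In untreated cells none of the 19 passed by limma, edgeR or DESeq2 or at an unadjusted p under 0.05. In the interaction, Tmem173, the gene of STING, and Socs1, a feedback inhibitor of JAK kinases, passed by limma. Their differences were −0.59 (adjusted p = 0.00652) and −0.75 (adjusted p = 0.000436), where 0.429% of all genes passed in that direction.

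For values side by side, 20 genes known as IFNγ targets were read in the same samples. With IFNγ, 18 of 20 were lower in DENR KO cells by limma, where 2.25% of all genes were. Their median log2 fold change was −0.73, and the antiviral members had 14 of 37 and −0.29. In the interaction 7 of the 20 passed, against 1 of 36 antiviral members and 0.429% of all genes in that direction. Socs1, also counted among the signaling genes above, is in both the 18 and the 7. The difference between these lists was not tested, since both were chosen with results of these data known and they share all samples. The ISRE core was present in 9 and the GAS core in 8 of the 17 IFNγ targets with a promoter window. Of all genes with a window, 3.99% and 9.55% held these cores.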

How the data were processed

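The authors sequenced poly-A RNA of 8 samples as paired ends of 150 bases. The submitters' processing notes name HISAT2 2.0.5, StringTie 1.3.3b, featureCounts 1.5.0-p3 and DESeq2 1.20.0, and the build mm9. The build printed here is GRCm38 instead. Of the Ensembl gene IDs found in a GRCm38 annotation, 95.22% and 95.25% in the 2 deposited tables have its coordinates. The handling of strand was not given in the sources used here. The deposited signal values are read counts divided by 1 size factor per sample, normalized within each of 2 tables. The authors also deposited group means and, per the file headers, the log2 fold changes, p-values and adjusted p-values of their own comparison, and none of these was used. All values (100%) were whole multiples of 1 read, within 0.001, and reads were recovered.

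Groups were compared within a table with limma 3.58.1 (trend, robust, R 4.3.3) on log2(value + 1), for genes with a mean of at least 10, with Benjamini-Hochberg adjustment over all genes. Fold changes on this scale understate those of low genes. The interaction used the genes in both tables and the samples of both. Alternatives were pseudocounts of 0.5 and 10, no minimum and a minimum of 100, median centring, edgeR 4.0.16 and DESeq2 1.42.0 on recovered reads, a replicate block, 8 samples in 1 fit, and each sample left out. With IFNγ edgeR called 309 genes lower and 254 higher. Members, gene lists and motifs were chosen with earlier results of these data known. All listed members are accounted for, and some genes of the other lists are not reported here. Comparisons across treatments share samples with those across genotypes.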

Additional observations from a re-analysis of the deposited data

Results flagged for a closer look

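Samhd1 stood out because its DENR KO effect differed between treatments in the test of that difference, by −0.51 in log2 units (limma, adjusted p = 0.000345). Over the 16 other settings run for this test its difference stayed past the threshold.

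A further 5 of 36 members had both DENR KO samples below both control samples with IFNγ and above both untreated, a pattern of 2.26% of all genes, while the test of the difference did not pass. Sp100 had a difference of −0.46 (adjusted p = 0.213), from 285 and 286 in control and 356 and 318 in DENR KO samples untreated to 909 and 910.1 and 787 and 775 with IFNγ. The difference of Ddx58 was −0.41 (adjusted p = 0.292), with 386 and 425 in control and 458 and 438 in DENR KO samples untreated. Ifi27, with 544 and 483 and 579.8 and 575 untreated, had −0.33 (adjusted p = 0.521). Lgals3bp, with 736 and 732 and 783 and 798 untreated, had −0.23 (adjusted p = 0.788). For Ifi44 the value was −2.61 (adjusted p = 0.511), but untreated control samples were at 0 and DENR KO samples at 1.96 and 2.95, so the size rests on the pseudocount and was −0.89 with a pseudocount of 10.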

How the results depend on the processing

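With IFNγ, the count of members lower in DENR KO cells was 14. It was 9 with 8 samples fitted together, 7 with a log2 fold change below −0.5 also required, 12 by DESeq2 and 14 by edgeR, and 12 to 16 with 1 sample left out. The cause of the fall to 9 was not tested. All 9 were among the 14. Over all genes, 314 of 13928 were lower in the main fit, and 143 of 13928 with a log2 fold change below −0.5 also required. With 8 samples fitted together 220 of 13998 were lower, by DESeq2 223 of 12698 and by edgeR 309 of 14131. Deviations by replicate number were little correlated between the genotypes (0.096 with IFNγ and 0.014 untreated). A single correlation over all tested genes cannot show whether samples were paired, so pairing is unresolved. The replicate block is therefore an alternative, and its counts stand only here. It gave 21 lower members with IFNγ, 2 untreated (Ifitm1 and Ifitm3, against 1 without it) and 1 in the interaction. Over all genes it gave 729 lower and 726 higher with IFNγ, against 314 and 251 without it. Lower calls over all genes were 89 against 21 untreated and 120 against 60 in the interaction. The interaction count was 1 to 2 with 1 sample left out, Zbp1 being added without untreated DENR KO replicate 2. Counts of higher members were 0 in every setting run. Of 825 single-gene values under alternatives, 776 kept direction and side, 14 lost the threshold, 17 gained it, 8 turned in sign and 10 ratios to untreated, which have no test, moved by more than the spread between replicates. With 1 sample left out, the log2 fold change with IFNγ ran over −0.046 to 0.20 for Isg20, −0.19 to 0.25 for Oas1a, −0.21 to 0.48 for Cmpk2 and −0.17 to 0.0064 for Ifitm2. The interaction of Herc6 ran over −0.40 to 0.57, and was −0.013 with a pseudocount of 10. None of the 14 calls was in a member with fewer than 100 normalized counts in control cells with IFNγ, where counting error is largest.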
